A study of Mus musculus with 28 samples.

Results

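Opposite-strand genes are a class of mouse genes named after a neighbour: the symbol is that of the neighbour followed by os, with a number where there is more than 1, because the transcript runs on the other DNA strand. They were taken here as every row whose name has at least 3 characters followed by os and optional digits at its end. Of the 24984 rows of each gene table, 180 names fitted, and 66 of them had a mean RPKM (reads scaled to the length of the counted sequence and to the mapped reads of the library) above 0.5 over the 4 libraries of at least 1 table. The RefSeq annotation of GRCm38.p6 lists 155 of the 180 as lncRNA, 4 as antisense RNA, 2 as transcribed pseudogenes and 19 as protein coding, and describes 172 of them as an opposite strand. The other 8 fitted by their letters only (Selenos, Minos1, Nanos1, Nanos2, Nanos3, Nrros and Mocos) or, for Csmd2os, carry no such description, so these data hold a class by name and not by function. Of the 180, 171 had a row for the partner, the gene whose name is left when os is removed.

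A transcript from the strand opposite a gene can start at the same promoter and run away from it (divergent), start inside the gene and run back through its first part (head-to-head), run into the gene's far end (tail-to-tail), or lie wholly within it (nested). Many such transcripts are unstable and are trimmed by the nuclear exosome, and nascent RNA methods record them before they are lost. RNA polymerase II starts at most mammalian promoters in both directions, and in long genes the polymerase needs many minutes to reach the far end. Elongin A (EloA) is a transcription elongation factor that raises the rate of RNA polymerase II in purified systems and takes part in a ubiquitin ligase that acts on stalled polymerase.

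Nascent RNA was measured in mouse embryonic stem cells (mESCs) by Bru-seq, in which living cells take up bromouridine (BrU) and the labelled RNA is pulled down and sequenced. WT and EloA null cells of the CCE28 line, both grown with LIF and a pair of kinase inhibitors and cleared of feeder fibroblasts, were labelled in 3 ways: for 10 min at steady state (2 mM BrU), or after 60 min of 1 µM flavopiridol, which holds polymerase at the promoter, followed by washing and 5 or 10 min of BrU (5-min and 10-min recovery). Each of the 6 groups had 2 libraries, 12 in all, with 9857523 to 28547351 reads per library as recovered from the RPKM steps, and the other 16 of the 28 samples were not analysed here. How the null allele was made and whether it is 1 clone is not given in the sources used here, and 1 protocol label names CJ7 in place of CCE28 cells.

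Genotypes below follow the sample titles, although 1 steady-state library (the first EloA null one) has wild type in its genotype field. Eloa itself, the targeted gene, was counted higher in every EloA null library, at 1.16 and 1.18 RPKM in WT and 1.89 and 1.96 in EloA null at steady state, 1.65-fold, and 1.97-fold and 1.58-fold in the 5-min and 10-min recovery. Where the deleted part lies is not given in the sources used here, so this gene does not check the labels, and every direction given below is that between the libraries labelled WT and those labelled EloA null. All 10 stem cell markers listed were above 0.5 RPKM in each condition (summed level 193 to 202 RPKM in WT and 198 to 211 in EloA null at steady state). Of 10 feeder fibroblast markers, 0 passed 0.5 RPKM at steady state (summed 1.62 to 1.95 RPKM in WT and 1.39 to 1.58 in EloA null) and 2, Col1a1 and Acta2, did in each recovery. Their sum was below WT in both EloA null libraries of each condition, none of the 10 was at 0 in every library, and the part of the feeder cells in the results was not tested.

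The promoters of 4 of the 8 genes with the highest mean over the 12 libraries are shown, since they start in different places: past the end of the partner, near its start, and deeper inside it. Each line gives 250 bases before to 50 bases after the annotated start in RefSeq (GRCm38.p6), 5′ to 3′ on the gene's own strand, in lower case with capitals where 1 of 3 motifs occurs, searched on both strands: the TATA box (TATAAA), the CCAAT box, and the GC box to which Sp factors bind (GGGCGG). The positions are chr17:24528001-24528300, plus strand for Rab26os, chr3:103968267-103968566, minus strand for Phtf1os, chr11:119834316-119834615, minus strand for Rptoros and chr5:36876830-36877129, minus strand for Ppp2r2cos.
Rab26os promoter: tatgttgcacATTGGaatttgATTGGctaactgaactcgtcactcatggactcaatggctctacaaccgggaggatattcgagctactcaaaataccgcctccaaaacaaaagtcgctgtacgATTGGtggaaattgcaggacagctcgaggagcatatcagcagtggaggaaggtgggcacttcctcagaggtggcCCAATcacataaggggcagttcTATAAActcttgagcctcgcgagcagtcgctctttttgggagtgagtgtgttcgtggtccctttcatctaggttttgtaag
Phtf1os promoter: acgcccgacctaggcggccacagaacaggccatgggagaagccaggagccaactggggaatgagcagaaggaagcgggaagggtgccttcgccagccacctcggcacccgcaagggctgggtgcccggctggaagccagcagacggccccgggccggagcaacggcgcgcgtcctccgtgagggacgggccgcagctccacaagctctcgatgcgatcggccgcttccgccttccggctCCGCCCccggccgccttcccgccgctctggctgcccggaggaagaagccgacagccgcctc
Rptoros promoter: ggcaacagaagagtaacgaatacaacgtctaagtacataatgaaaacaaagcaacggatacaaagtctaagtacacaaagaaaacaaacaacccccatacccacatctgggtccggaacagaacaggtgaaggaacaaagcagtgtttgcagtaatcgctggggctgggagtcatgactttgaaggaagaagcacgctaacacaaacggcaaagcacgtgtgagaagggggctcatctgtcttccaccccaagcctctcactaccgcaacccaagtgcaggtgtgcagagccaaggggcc
Ppp2r2cos promoter: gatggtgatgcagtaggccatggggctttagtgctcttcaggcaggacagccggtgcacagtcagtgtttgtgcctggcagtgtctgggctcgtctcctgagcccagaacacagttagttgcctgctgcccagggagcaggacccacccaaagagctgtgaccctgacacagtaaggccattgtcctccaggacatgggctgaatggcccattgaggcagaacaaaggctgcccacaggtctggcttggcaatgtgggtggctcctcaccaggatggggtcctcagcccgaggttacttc

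Rab26os has a TATA box that begins 31 bases before its start and 4 CCAAT boxes, 3 of them on the other strand. Phtf1os, whose start lies in a 72.0% GC stretch with 32 CpG, has 1 GC box on the other strand, 11 bases before its start. Rptoros (49.3% GC, 9 CpG) and Ppp2r2cos (59.0% GC, 3 CpG), which both start inside their partner, hold none of the 3 motifs in this window. RefSeq promoters matched 56 of the 66 genes, 63 promoters in all. The TATA box letters were in 6.35% of these 63 against 13.6% of 32851 promoters of all genes, the CCAAT letters in 25.4% against 37.4%, and the GC box letters in 38.1% against 35.7%. The median GC content was 55.0% against 52.7%, with 9 CpG per promoter against 7. A match is only a run of letters and was not tested as a binding site.

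The length that each value was scaled to was read from the values. Of the 66 genes, 59 gave whole reads in all 12 libraries (within 0.1 read) when the length was taken as the introns with 1 exon base at each end, and the 7 with a single exon block when it was the full span. The length used for these spliced genes was thus that of the introns, which is short for a gene with 1 small intron. It does not show which reads were counted, and the methods of the study name whole genes, so whether exon reads are in these values is open to doubt. Rab26os, with the highest mean over the 12 libraries, was scaled to the 201 bases below (chr17:24528436-24528636, plus strand), where capitals mark the last exon base with the GT that opens the intron and the AG that closes it with the first base of the next exon.
Rab26os length window: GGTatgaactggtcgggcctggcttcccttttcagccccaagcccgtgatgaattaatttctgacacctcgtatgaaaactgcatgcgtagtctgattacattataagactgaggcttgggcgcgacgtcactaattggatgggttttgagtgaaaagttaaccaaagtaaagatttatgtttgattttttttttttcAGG
Other short windows were those of Zfhx2os (299 bases), Fam120aos (335), Man2c1os (423), Ube4bos3 (505), Abhd11os (542), Wdr83os (684) and Epb41l4aos (730).

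By the position of the annotated spans, 24 of the 66 genes were nested in their partner: Zfhx2os, Ppp2r2cos, Tnk2os, Rptoros, Rsf1os1, Rab11fip4os1, Rab11fip4os2, Far1os, Kank4os, Zbtb11os1, Ube4bos3, Ptprtos, Bcas3os1, Bcas3os2, Ccdc34os, Pitpnm2os1, Frs3os, Tbc1d22bos, Lrp8os2, Peg3os, Bach2os, Grip1os1, Grip1os2 and Dnm3os. Divergent from the partner, with starts 11 to 2662 bases apart, were 13: Ino80dos, Fam120aos, Brip1os, Wdr83os, Appbp2os, Mkln1os, Dio3os, Map2k3os, Crxos, Ccpg1os, Etaa1os, Stamos and Cep83os. Tail-to-tail, with 54 to 42773 shared bases, were 10: Rab10os, Cebpzos, Rsf1os2, Alkbh3os1, Ppifos, Srrm4os, Abhd11os, Scpep1os, Chn1os3 and Fancd2os. Head-to-head, with 45 to 3548 shared bases, were 8: Man2c1os, Phtf1os, Stk35os1, Sp3os, Dgkeos, Rbm3os, Ggnbp2os and Uckl1os. Another 6 did not overlap and were not divergent within 5 kb (Rab26os, Epb41l4aos, Tbx3os2, Fbxl12os, Slc7a6os and Brd3os), and 5 had no partner row (Selenos, Minos1, Nanos1, Nanos3 and Zbtb8os). The partner of each is the same symbol without os and its number.

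Most of these genes were weakly transcribed. At steady state 56 were above 0.5 RPKM, with a median of 1.80 RPKM, and 46 (median 1.36) and 57 (median 1.68) were in the 5-min and 10-min recovery, 36 of them in all 3 conditions. Of the 180 names, 1 was at 0 in every library. By position, the steady-state median was 2.08 RPKM for the 10 tail-to-tail genes, 1.48 for the 24 nested, 1.27 for the 8 head-to-head and 0.863 for the 13 divergent ones.

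Rab26os (chr17:24528251-24528744, plus strand, gene 75614) lies just past the 3′ end of Rab26, a small GTPase of secretory vesicles, and its mean over the 12 libraries was the highest of the class, although Rptoros stood above it in every library of the 5-min recovery. Rab26os stood at 19.6 and 13.5 RPKM in WT and 19.1 and 12.99 in EloA null, and Rab26 at 3.26 and 3.48 against 3.54 and 3.22 at steady state. Rab26os was at 9.59 and 9.43 RPKM in WT and 5.43 and 10.4 in EloA null, and Rab26 at 3.84 and 2.92 against 3.41 and 4.35 in the 5-min recovery. Rab26os gave 12.95 and 11.95 RPKM in WT and 23.2 and 19.00 in EloA null, and Rab26 12.2 and 9.62 against 14.5 and 12.8 in the 10-min recovery. The values came to 94 and 76 reads in WT and 89 and 73 in EloA null at steady state, where the genotypes overlapped. In the 10-min recovery both EloA null libraries were above both WT libraries. Its level over the mean of the partner was 4.84, 2.40 and 1.36 in the 3 conditions. Its rank and this ratio rest on the length of 201 bases, and whether exon reads are in the value is open to doubt. The same limit holds for the other genes with short lengths named above.

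Epb41l4aos, on chromosome 18 just past the 3′ end of Epb41l4a, a cytoskeletal FERM-domain gene, was second. Epb41l4aos stood at 13.2 and 12.3 RPKM in WT and 16.8 and 13.4 in EloA null, and Epb41l4a at 3.01 and 3.01 against 3.65 and 4.22 at steady state. Epb41l4aos was at 8.75 and 9.41 RPKM in WT and 8.74 and 9.52 in EloA null, and Epb41l4a at 3.94 and 4.20 against 5.36 and 4.82 in the 5-min recovery. Epb41l4aos gave 10.6 and 10.9 RPKM in WT and 11.5 and 11.7 in EloA null, and Epb41l4a 2.42 and 2.36 against 2.86 and 2.83 in the 10-min recovery. The EloA null libraries of Epb41l4a were above WT in all 3 conditions, while those of Epb41l4aos overlapped WT in the 5-min recovery, and neither gene passed 1.5-fold.

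Rptoros (chr11:119820811-119834365, minus strand, gene 319454) is nested deep inside Rptor, which encodes the Raptor subunit of the growth kinase complex mTORC1. Rptoros stood at 4.47 and 4.28 RPKM in WT and 3.61 and 4.16 in EloA null, and Rptor at 4.14 and 3.95 against 3.44 and 3.82 at steady state. Rptoros was at 15.9 and 12.6 RPKM in WT and 13.2 and 12.8 in EloA null, and Rptor at 7.32 and 6.33 against 6.16 and 5.58 in the 5-min recovery. Rptoros gave 9.49 and 8.89 RPKM in WT and 8.06 and 8.15 in EloA null, and Rptor 4.18 and 4.15 against 3.45 and 3.56 in the 10-min recovery. Rptoros stood at the level of its host at steady state and above every library of the host in both recoveries. The genotypes were under 1.5-fold apart, the EloA null level being 0.887, 0.914 and 0.882 times WT.

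Zfhx2os (chr14:55073091-55075874, plus strand, gene 432855) is nested in Zfhx2, a zinc finger homeobox gene. Zfhx2os stood at 4.90 and 5.99 RPKM in WT and 8.24 and 7.42 in EloA null, and Zfhx2 at 8.81 and 7.88 against 12.8 and 14.1 at steady state. Zfhx2os was at 8.48 and 4.22 RPKM in WT and 8.70 and 5.03 in EloA null, and Zfhx2 at 8.21 and 6.83 against 11.3 and 10.1 in the 5-min recovery. Zfhx2os gave 4.44 and 3.64 RPKM in WT and 6.70 and 4.69 in EloA null, and Zfhx2 11.2 and 11.04 against 17.1 and 17.01 in the 10-min recovery. Both genes were higher in both EloA null libraries at steady state and at 10 min, and only Zfhx2 passed 1.5-fold, in those 2 conditions (1.61 and 1.53). They lie on chromosome 14, where the median log2 fold of EloA null over WT was 0.52, 0.48 and 0.52 in the 3 conditions against 0.02, -0.07 and 0.04 elsewhere, with 98%, 91.7% and 96.3% of the genes above 0. Ppifos and Ppif, the mitochondrial cyclophilin, are on the same chromosome, and the part of this shift in their values was not tested.

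Cebpzos (chr17:78916499-78921048, plus strand, gene 68554), a protein-coding gene, meets the far end of Cebpz tail-to-tail over 2046 bases. Cebpzos stood at 4.12 and 3.92 RPKM in WT and 4.24 and 3.63 in EloA null, and Cebpz at 3.45 and 3.71 against 3.15 and 2.90 at steady state. Cebpzos was at 4.58 and 5.38 RPKM in WT and 4.57 and 5.84 in EloA null, and Cebpz at 3.28 and 2.99 against 2.66 and 3.12 in the 5-min recovery. Cebpzos gave 7.57 and 7.94 RPKM in WT and 7.90 and 8.81 in EloA null, and Cebpz 8.58 and 9.12 against 7.40 and 8.59 in the 10-min recovery. Levels of both genes were highest at 10 min, and the genotypes of Cebpzos overlapped in each condition.

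Phtf1os (chr3:103964536-103968316, minus strand, gene 100125931) leaves the start of Phtf1 head-to-head, sharing 207 bases with it, and overlaps Rsbn1 on its other side over 2103 bases. Phtf1os stood at 2.84 and 3.60 RPKM in WT and 3.39 and 2.88 in EloA null, and Phtf1 at 2.74 and 2.88 against 2.71 and 2.51 at steady state. Phtf1os was at 4.51 and 5.49 RPKM in WT and 4.55 and 6.12 in EloA null, and Phtf1 at 3.35 and 2.99 against 3.52 and 4.15 in the 5-min recovery. Phtf1os gave 7.27 and 6.92 RPKM in WT and 7.06 and 8.70 in EloA null, and Phtf1 2.81 and 2.59 against 2.75 and 2.99 in the 10-min recovery. Phtf1os was higher in each recovery than at steady state in all 4 libraries, which Phtf1 was not. The genotypes of Phtf1os overlapped in every condition.

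Ppp2r2cos (chr5:36873595-36876879, minus strand, gene 71054) is nested near the start of Ppp2r2c, a regulatory subunit of protein phosphatase 2A. Ppp2r2cos stood at 5.38 and 4.60 RPKM in WT and 3.92 and 3.94 in EloA null, and Ppp2r2c at 4.35 and 3.41 against 3.30 and 3.38 at steady state. Ppp2r2cos was at 5.47 and 2.68 RPKM in WT and 3.08 and 1.45 in EloA null, and Ppp2r2c at 4.01 and 2.54 against 2.53 and 1.87 in the 5-min recovery. Ppp2r2cos gave 7.09 and 4.46 RPKM in WT and 5.13 and 4.31 in EloA null, and Ppp2r2c 2.57 and 1.83 against 1.98 and 1.64 in the 10-min recovery. The WT replicates of both genes spread in the recoveries, WT replicate 1 being the highest of the 4 libraries each time. Selenos, matched by its letters only, encodes selenoprotein S of the endoplasmic reticulum. It stood at 4.62 and 3.80 RPKM in WT and 3.97 and 3.84 in EloA null at steady state, at 4.29 and 3.13 RPKM in WT and 2.69 and 2.40 in EloA null after 5 min, and at 8.92 and 8.53 RPKM in WT and 7.83 and 7.16 in EloA null after 10 min.

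**Figure D1:**
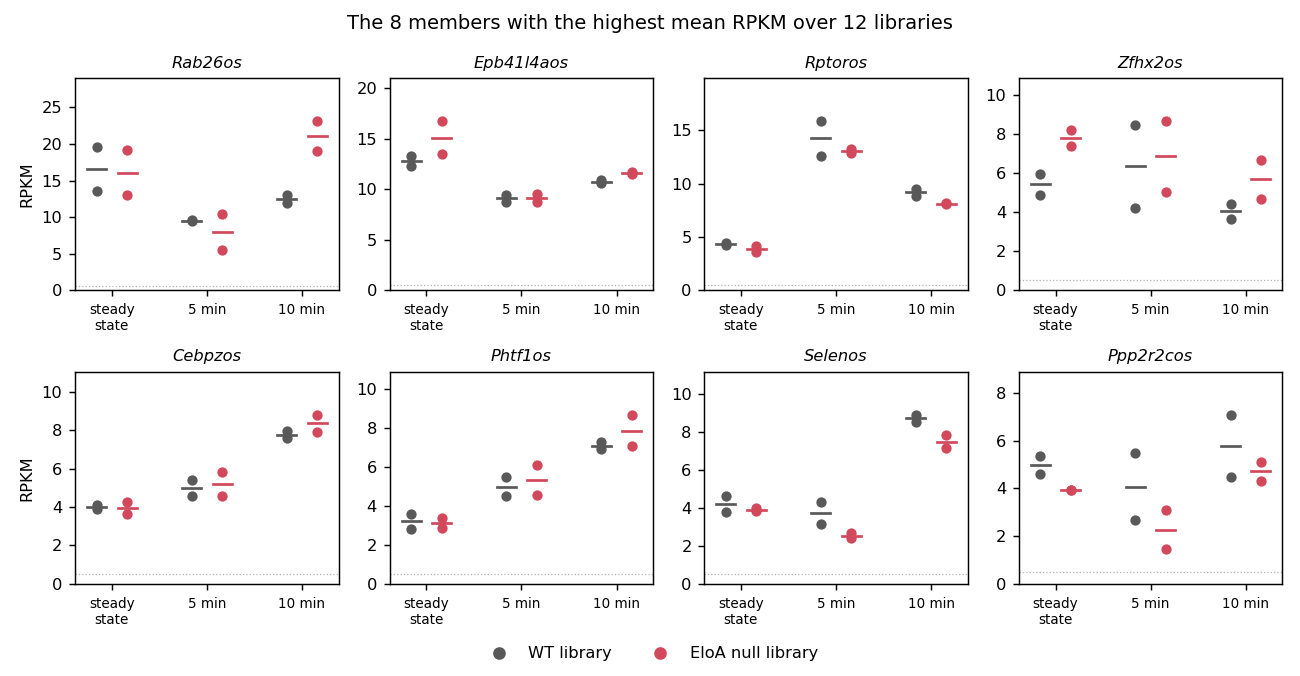
RPKM (vertical axis of each panel, linear from 0) in steady state and in the 5-min and 10-min recovery (horizontal axis) for the 8 genes with the highest mean over the 12 libraries. Points are single libraries, grey for WT and red for EloA null, bars are means of 2 libraries and the dotted line is 0.5 RPKM. For Rab26os the genotypes overlap at steady state and in the 5-min recovery and stand apart at 10 min, at 12.95 and 11.95 RPKM in WT and 23.2 and 19.00 in EloA null.

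How far do these rows measure the opposite-strand transcript and how far its partner? Kit and alignment kept the strands apart, and whether strand was used when reads were assigned to genes is not stated. If it was not, reads of a host gene are also counted for what lies inside it. To read this from the files, every other gene of over 1 kb lying on the strand opposite a host above 2 RPKM and over 20 kb long, at least 2 kb from the host's ends, was set against its host. Of 68 such genes, 54 (79.4%) were within 2-fold of the host at steady state, with a median log2 ratio of 0.06, and of 15 on the same strand, which strand cannot part from the host, 11 (73.3%) were. Htr2b, the serotonin 2B receptor, stood at 5.36 RPKM inside Psmd1 at 4.33, and Angpt2, an endothelial ligand, at 4.41 inside Mcph1 at 4.80. Igsf6 stood at 2.00 inside Mettl9 at 2.03, and Lrrc4, a synaptic protein, at 2.81 inside Snd1 at 3.03. Another 12 of the 68 were over 2-fold below the host and 2 over 2-fold above it. Gm38560 stood at 0.163 RPKM inside Txnrd1, a thioredoxin reductase gene, at 4.04, Lncbate1 at 0.0037 inside Zfhx3 at 2.12 and Kcnrg at 0.528 inside Dleu2 at 3.56. Most nested rows thus stood near the host and some far below it, and the part of the host's reads in the value of a nested gene was not tested.

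The nested opposite-strand genes were read with a limit of 0.5 RPKM on both rows. The other nested genes above had no limit on their own row. For a weak host, such as Peg3 at 0.732 RPKM, a member over 2-fold below it would fall under the limit. The limit also leaves out Lrp8os2, at 0.695 RPKM inside Lrp8 at 0.333, and Ptprtos, at 1.66 inside Ptprt at 0.041. The count below is thus not compared with that of the other nested genes. At steady state, all 18 nested pairs with both rows above 0.5 RPKM were within 2-fold of each other (median ratio 1.06, range 0.523 to 1.82), against 6 of 9 tail-to-tail pairs (median 0.944), 3 of 8 divergent pairs (0.499), 2 of 7 head-to-head pairs (0.222) and 1 of 4 of the others, 30 of 46 in all. Tnk2os and its host Tnk2, a nonreceptor tyrosine kinase, had a ratio of 1.25, Rsf1os1 and Rsf1, a chromatin remodelling subunit, 1.02, and Rptoros 1.07. Of the divergent pairs 4 of 8 members, and of the head-to-head pairs 5 of 7, were over 2-fold below the partner. Among them were Rbm3os at 0.0427 of Rbm3, the cold-induced RNA-binding protein, Dgkeos at 0.130 of Dgke and Sp3os at 0.222 of the transcription factor Sp3. Over 2-fold above the partner were 1 divergent member, Brip1os at 3.44 times Brip1, and 0 head-to-head members.

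A few rows stood well above a nearly silent partner. Ptprtos had a steady-state mean of 1.66 RPKM with Ptprt, a receptor tyrosine phosphatase of neurons, at 0.0413. Srrm4os was at 1.79 beside Srrm4, a neuronal splicing regulator, at 0.243. Crxos, a homeobox gene, was at 0.664 beside the photoreceptor factor Crx at 0.0158, and Dnm3os, the host of Mir199a-2 and Mir214, at 0.186 inside Dnm3 at 0.0115. Other overlaps bear on some rows: Brip1os runs across Ints2 and Med13, which stood at 2.02 and 3.70 RPKM against its 2.86, Ino80dos across Ndufs1, a complex I subunit, at 2.53 against 4.41, and Uckl1os into Zfp512b at 1.51 against 0.563.

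**Figure D2:**
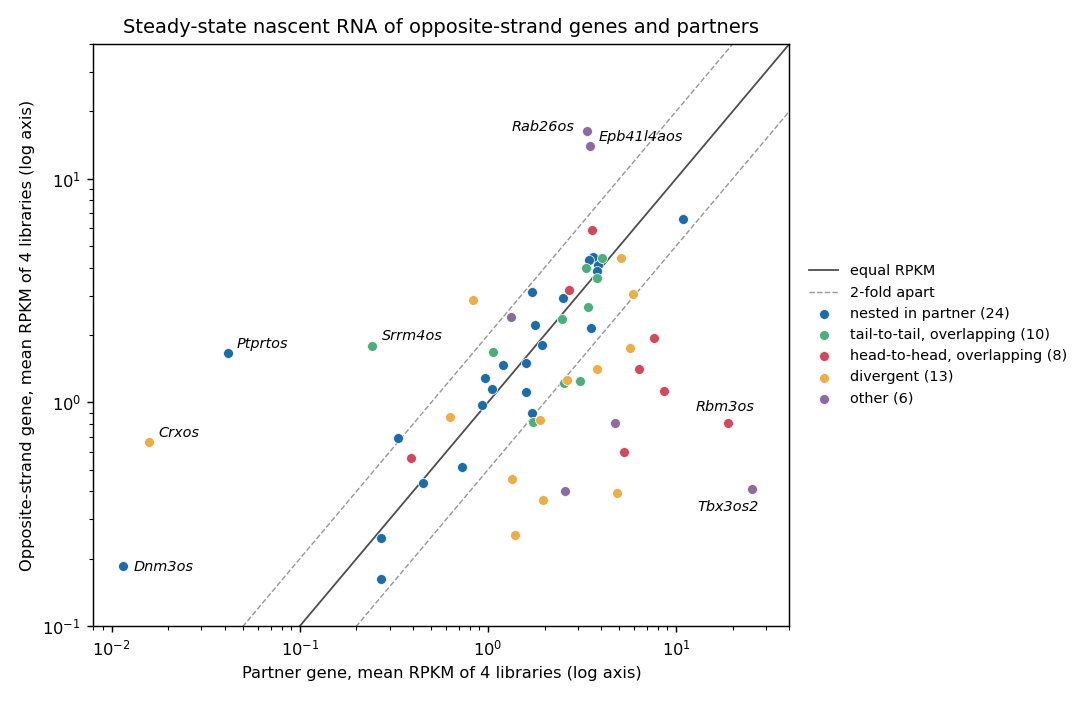
Mean steady-state RPKM of the 4 libraries for each opposite-strand gene (vertical, log axis) against its partner (horizontal, log axis), coloured by position, with the line of equal values and dashed lines 2-fold either side. Most nested pairs (blue) lie near the equal line, with Ptprtos and Dnm3os far above it. Among genes with both rows above 0.5 RPKM, 5 of 7 head-to-head and 4 of 8 divergent ones fall below the lower dashed line. Of the genes with both rows above that limit, Rab26os, Epb41l4aos and the divergent Brip1os lie above the upper dashed line.

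Recovery from flavopiridol was read next. The tables were normalized separately, so levels set across conditions below are descriptions with no test. Over 10796 genes above 0.5 RPKM in WT at steady state, the median ratio to steady state in WT (on RPKM + 0.1) was 0.654 at 5 min and 1.03 at 10 min. For 56 opposite-strand genes the medians were 0.666 and 0.822, and for 48 partners 0.637 and 0.952. At 5 min 4 of the 56 were over 2-fold above steady state and 21 over 2-fold below, against 685 and 3759 of all genes. Ccdc34os and Rab10os were among the low ones and Chn1os3 and Rptoros among the high.

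For nested genes the WT level over steady state is given with the distance between the member's centre and the start of its host, in groups of distance set after the values had been seen. Of the 24, 20 were above 0.5 RPKM in WT at steady state, a choice that leaves out genes low in that condition. Zbtb11os1 and Ppp2r2cos, 2.51 and 8.39 kb in, were at 1.13 and 0.817 of the steady-state level at 5 min. The 12 genes 12 to 70 kb in had a median of 0.455 on RPKM + 0.1, with 0 over 2-fold above steady state and 6 over 2-fold below. The 6 genes over 70 kb in had a median of 1.45, and they did not move one way: Rptoros, Bcas3os1 and Bcas3os2, 225 to 418 kb in, were over 2-fold above and Rab11fip4os2 and Ptprtos over 2-fold below. At 10 min the medians were 0.467 for the 12 genes and 0.995 for the 6. The other 4, Dnm3os, Grip1os1, Grip1os2 and Bach2os, all over 200 kb in, were below 0.5 RPKM at steady state and came in through a recovery table, so that they had to stand higher there, and they support no trend.

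Far1os, inside the fatty acyl-CoA reductase gene Far1, stood at 3.18, 0.710 and 0.127 RPKM in WT at steady state, 5 min and 10 min, while Far1 stood at 2.72, 0.872 and 1.45 RPKM. Tnk2os gave 4.10, 0.714 and 0.573 RPKM and Tnk2 3.31, 1.43 and 1.40 RPKM. Ccdc34os gave 1.52, 0.132 and 0.380 RPKM, and Ccdc34 1.31, 0.439 and 1.92 RPKM. In all 3 pairs the nested gene stood further below its steady-state level at 5 min than the host as a whole. Rsf1os1, centred 41.9 kb into Rsf1, gave 3.95, 0.727 and 0.970 RPKM, whereas Rsf1os2, which overlaps the far end of the same gene 93.4 kb from its start, gave 3.72, 4.21 and 2.03 RPKM. At 5 min the gene nearer the start of Rsf1 was thus below its steady-state level and the farther one was not.

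Among the far genes, Bcas3os1 gave 1.49, 5.51 and 1.42 RPKM and Bcas3os2 1.10, 3.28 and 1.15 RPKM, inside Bcas3 at 1.65, 5.08 and 1.55 RPKM. Grip1os1 and Grip1os2, inside Grip1, a glutamate receptor scaffold gene, were 5.05 and 4.88 times the steady-state level at 5 min and back to 0.186 and 0.284 RPKM at 10 min. Bach2os, inside the lymphoid repressor gene Bach2, was at 2.59 times. At 10 min these 5 genes were within 2-fold of steady state. Rptoros, at 4.38, 14.3 and 9.19 RPKM, and Dnm3os, at 0.223, 0.442 and 0.666 RPKM, stayed over 2-fold above it. Ptprtos went the other way, at 0.916, 0.283 and 0.331 RPKM while Ptprt stood at 0.0372, 0.118 and 0.0402 RPKM, so this row and its host stood on opposite sides of steady state at 5 min.

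The ratio of the mean level of a member to that of its host in the same table does not depend on how the table was scaled. For Rptoros it was 1.07, 2.15 and 2.25 at steady state, 5 min and 10 min. For Rsf1os1 it was 1.02, 0.323 and 0.418, and for Tnk2os 1.25, 0.485 and 0.404. Rab11fip4os2 went from 1.82 to 0.304 and 2.66. Nested pairs within 2-fold were 18 of 18 at steady state, 11 of 17 at 5 min and 7 of 14 at 10 min.

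**Figure D3:**
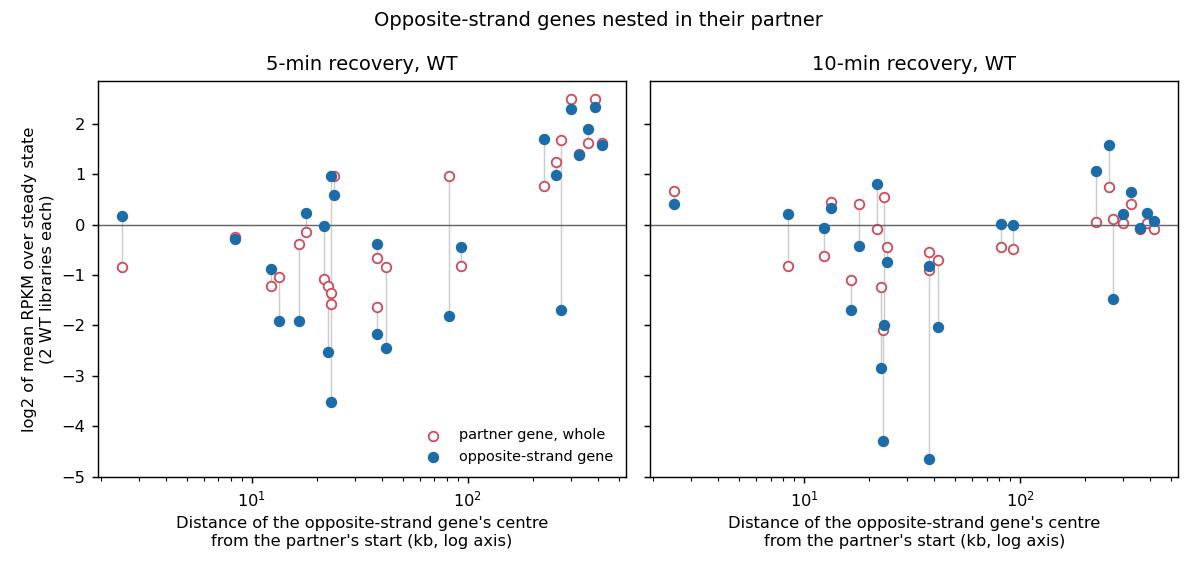
log2 of the WT mean RPKM in the 5-min (left) and 10-min recovery (right) over steady state (vertical axis) against the distance in kb of the nested gene's centre from the start of its partner (horizontal, log axis), for the 24 nested genes (blue) and the whole partner (open red), joined by a line. At 5 min Rptoros, Bcas3os1 and Bcas3os2, over 200 kb in, lie above 1 and 6 of the 12 genes 12 to 70 kb in that were above 0.5 RPKM at steady state lie below -1 on RPKM + 0.1. Of the other 5 points over 200 kb, 4 are genes that were below 0.5 RPKM at steady state and were chosen through a recovery table.

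Outside the nested group the levels in recovery also varied. Rab10os, tail-to-tail with the small GTPase gene Rab10, gave 4.73, 0.559 and 3.31 RPKM in WT, and Chn1os3, at the end of Chn1, 1.13, 4.49 and 2.86 RPKM. Tbx3os2, near the pluripotency factor gene Tbx3, gave 0.377, 1.07 and 3.92 RPKM and Tbx3 24.5, 55.8 and 64.0 RPKM. Fbxl12os gave 0.335, 0.619 and 1.68 RPKM. Both Tbx3os2 and Fbxl12os were higher at 5 min than at steady state and higher again at 10 min. Both were below 0.5 RPKM at steady state and came in through a recovery table, so they had to stand higher there and support no trend. Of the divergent genes, Etaa1os gave 0.354, 0.632 and 1.63 RPKM, Stamos 0.333, 0.649 and 0.987 RPKM and Cep83os 0.222, 0.177 and 0.650 RPKM, each above the limit in the 10-min recovery, through which they were chosen, and below it at steady state. Peg3os, in the imprinted Peg3 domain, gave 0.511, 0.997 and 0.0262 RPKM, and its libraries held 0 to 16 reads.

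EloA null was then set against WT within each condition. At steady state 7 of the 56 opposite-strand genes tested (12.5%) were past 1.5-fold higher in EloA null and 0 lower, against 6.31% (higher) and 1.66% (lower) of all 11003 genes, and all 7 had no overlap between the genotypes, which 6.74% of all genes did past 1.5-fold in either direction. They were Abhd11os, Dio3os, Fam120aos, Frs3os, Ptprtos, Wdr83os and Nanos3, the last matched by its letters only. Of the 52 tested that are described as an opposite strand, 6 (11.5%) were past 1.5-fold higher. With each library divided by its median the count was 5, all higher, and with a ratio of mean RPKM + 0.1 it was also 5. The share of all genes under those 2 settings is not given here. Of the partners of all opposite-strand genes, 4 of 49 tested were past 1.5-fold, all higher (Abhd11, Dio3, Ppif and Zfhx2). Dio3 had a mean above 0.5 RPKM only in EloA null, and passed the filter through it. No gene passed an adjusted p of 0.05 in limma's test (0% of 11003), 11 of the 56 and 1970 of all genes had an unadjusted p under 0.05, and 2 libraries against 2 cannot go below 0.333 in an exact two-sided permutation test. In bulk libraries fewer cells of a type and less RNA per cell cannot be told apart. The median log2 fold of the 56 was 0.04 and that of all genes 0.03.

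Ptprtos (chr2:162390813-162393946, plus strand, gene 77645) had the largest of these differences. Ptprtos stood at 0.918 and 0.914 RPKM in WT and 2.62 and 2.20 in EloA null, and Ptprt at 0.0344 and 0.0401 against 0.0420 and 0.0487 at steady state. Ptprtos was at 0.283 and 0.283 RPKM in WT and 0.803 and 0.577 in EloA null, and Ptprt at 0.115 and 0.121 against 0.161 and 0.132 in the 5-min recovery. Ptprtos gave 0.318 and 0.344 RPKM in WT and 0.639 and 0.573 in EloA null, and Ptprt 0.0380 and 0.0424 against 0.0463 and 0.0532 in the 10-min recovery. Every EloA null library of Ptprtos was above every WT library in all 3 conditions, though only steady state passed the 0.5 RPKM filter. There it was 2.63-fold higher (log2 fold change 1.30 ± 0.11 SE, adjusted p = 0.0768 by limma), on 55 and 64 reads in WT and 152 and 154 in EloA null. In a fit of all 12 libraries together its adjusted p by limma was 0.0105, past the threshold. The share of all genes past it in that fit is not given here.

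Abhd11os (chr5:135012122-135013157, minus strand, gene 69812) meets Abhd11, a mitochondrial hydrolase gene, tail-to-tail over 54 bases. Abhd11os stood at 0.849 and 1.06 RPKM in WT and 2.39 and 2.44 in EloA null, and Abhd11 at 0.767 and 0.781 against 1.18 and 1.52 at steady state. Abhd11os was at 0.187 and 0.291 RPKM in WT and 0 and 0.320 in EloA null, and Abhd11 at 0.352 and 0.313 against 0.291 and 0.488 in the 5-min recovery. Abhd11os gave 1.08 and 0.836 RPKM in WT and 1.39 and 1.36 in EloA null, and Abhd11 0.579 and 0.517 against 1.04 and 0.937 in the 10-min recovery. At steady state Abhd11os was 2.54-fold higher in EloA null (log2 fold change 1.26 ± 0.12 SE, adjusted p = 0.0826 by limma), on 11 to 37 reads, and Abhd11 was 1.75-fold higher. At 5 min the member had 0 to 3 reads. Member and partner were both above WT in each EloA null library at steady state and at 10 min.

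Dio3os (chr12:110275384-110278068, minus strand, gene 353504) runs away from Dio3, the thyroid hormone inactivating deiodinase, in the imprinted Dlk1-Dio3 region, and holds Mir1247. Dio3os stood at 0.593 and 0.685 RPKM in WT and 1.13 and 1.04 in EloA null, and Dio3 at 0.381 and 0.403 against 0.602 and 1.13 at steady state. Dio3os was at 0 and 0 RPKM in WT and 0.119 and 0.533 in EloA null, and Dio3 at 0.597 and 0.507 against 0.404 and 0.961 in the 5-min recovery. Dio3os gave 0.339 and 0.257 RPKM in WT and 0.923 and 0.621 in EloA null, and Dio3 0.0853 and 0.267 against 0.295 and 0.188 in the 10-min recovery. EloA null libraries of Dio3os were above WT in all 3 conditions, 1.70-fold at steady state (log2 fold change 0.68 ± 0.12 SE, adjusted p = 0.122 by limma) and 2.59-fold at 10 min (log2 fold change 1.12 ± 0.26 SE, adjusted p = 0.156 by limma). The counts were low, 20 to 41 reads at steady state and 8 to 26 at 10 min, and at 5 min 0 in both WT libraries against 2 and 13. Dio3 was 2.21-fold higher at steady state and was below the limit at 10 min.

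Fam120aos (chr13:48968112-48969905, plus strand, gene 68128) diverges from Fam120a, an RNA-binding scaffold gene. Fam120aos stood at 1.87 and 2.57 RPKM in WT and 3.35 and 4.38 in EloA null, and Fam120a at 5.73 and 6.00 against 5.80 and 5.98 at steady state. Fam120aos was at 3.03 and 2.36 RPKM in WT and 2.00 and 3.11 in EloA null, and Fam120a at 3.99 and 3.31 against 3.57 and 2.94 in the 5-min recovery. Fam120aos gave 1.90 and 2.57 RPKM in WT and 3.29 and 3.56 in EloA null, and Fam120a 4.61 and 4.58 against 4.65 and 4.45 in the 10-min recovery. The member was 1.74-fold higher in EloA null at steady state (log2 fold change 0.78 ± 0.21 SE, adjusted p = 0.186 by limma) and 1.53-fold higher at 10 min (log2 fold change 0.61 ± 0.17 SE, adjusted p = 0.187 by limma), while the partner stayed within 0.891 to 1.00 of WT in the 3 conditions. On a length of 335 bases the values came to 8 to 41 reads.

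Frs3os (chr17:47699969-47701996, minus strand, gene 100126242) is nested in Frs3, an adaptor of FGF receptors. Frs3os stood at 0.962 and 0.791 RPKM in WT and 1.67 and 1.18 in EloA null, and Frs3 at 0.950 and 0.808 against 1.17 and 1.28 at steady state. Frs3os was at 0.467 and 0 RPKM in WT and 0.463 and 0.320 in EloA null, and Frs3 at 0.510 and 0.340 against 0.844 and 0.649 in the 5-min recovery. Frs3os gave 0.978 and 1.21 RPKM in WT and 1.11 and 1.42 in EloA null, and Frs3 1.29 and 1.10 against 1.92 and 1.78 in the 10-min recovery. The member was 1.63-fold higher at steady state (log2 fold change 0.63 ± 0.19 SE, adjusted p = 0.219 by limma), while Frs3 was 1.39-fold higher there and 1.76-fold and 1.54-fold higher in the recoveries, without overlap. Frs3os held 24 to 42 reads at steady state and 0 to 6 at 5 min.

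Wdr83os (chr8:85080963-85082339, plus strand, gene 414077) encodes Asterix, a chaperone subunit for membrane proteins, and diverges from Wdr83. Wdr83os stood at 1.53 and 1.26 RPKM in WT and 1.83 and 2.41 in EloA null, and Wdr83 at 5.85 and 4.76 against 6.34 and 5.89 at steady state. Wdr83os was at 0.445 and 0.808 RPKM in WT and 0.982 and 0.592 in EloA null, and Wdr83 at 3.82 and 2.90 against 3.66 and 3.65 in the 5-min recovery. Wdr83os gave 2.41 and 2.25 RPKM in WT and 3.44 and 3.53 in EloA null, and Wdr83 8.45 and 6.68 against 10.5 and 9.05 in the 10-min recovery. It was 1.52-fold higher at steady state (log2 fold change 0.57 ± 0.17 SE, adjusted p = 0.211 by limma) and just under 1.5-fold at 10 min. Nanos3 (chr8:84173733-84176552, minus strand, gene 244551), a translational repressor of germ cells with no partner, stood at 2.03 and 1.62 RPKM in WT and 2.73 and 2.77 in EloA null at steady state, at 0.145 and 0.413 RPKM in WT and 0.279 and 0.385 in EloA null after 5 min and at 0.833 and 0.711 RPKM in WT and 1.76 and 1.70 in EloA null after 10 min. It was 1.51-fold higher at steady state (log2 fold change 0.58 ± 0.13 SE, adjusted p = 0.156 by limma) and 2.24-fold higher at 10 min (log2 fold change 1.07 ± 0.13 SE, adjusted p = 0.104 by limma).

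In the 5-min recovery 0 of 46 genes tested were past 1.5-fold higher in EloA null and 2 lower, against 4.64% and 5.41% of all 8551 genes. With each library divided by its median the split was 1 higher and 1 lower, and the share of all genes under that scaling is not given here. The 2 lower genes without that scaling were Far1os and Ppp2r2cos. Only Far1os did so without overlap, which 8.12% of all genes did in either direction, and of 47 partners 1, Frs3, was past 1.5-fold. Far1os had a mean above 0.5 RPKM only in WT and Frs3 only in EloA null. Each thus passed the filter through the genotype in which it was high. By limma 0% of all genes passed an adjusted p of 0.05, with an unadjusted p under 0.05 for 1 of the 46 and 772 of all genes. The median log2 fold was 0.01 for the 46 and -0.06 for all genes.

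Far1os (chr7:113538026-113564987, minus strand, gene 69295) was the lower one without overlap. Far1os stood at 2.88 and 3.48 RPKM in WT and 2.89 and 2.41 in EloA null, and Far1 at 2.48 and 2.95 against 2.47 and 2.13 at steady state. Far1os was at 0.685 and 0.736 RPKM in WT and 0.460 and 0.462 in EloA null, and Far1 at 0.895 and 0.849 against 0.653 and 0.550 in the 5-min recovery. Far1os gave 0.122 and 0.132 RPKM in WT and 0.0883 and 0.0860 in EloA null, and Far1 1.47 and 1.43 against 1.14 and 1.28 in the 10-min recovery. At 5 min Far1os was at 0.649 of WT (log2 fold change -0.53 ± 0.23 SE, adjusted p = 0.570 by limma), and Far1 at 0.690, both below WT in each library. Ppp2r2cos was at 0.556 of WT, and its libraries, given above, overlapped. The count of genes past 1.5-fold at 5 min was higher with any 1 library left out. The share of all genes with a library left out is not given here, so that rise is not read as a result about the class.

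In the 10-min recovery 5 of 57 genes tested were past 1.5-fold higher in EloA null (Dio3os, Fam120aos, Fbxl12os, Nanos3 and Rab26os) and 2 lower (Dnm3os and Man2c1os), against 8.25% and 2.46% of all 9867 genes. With each library divided by its median the split was 4 and 3, and the share of all genes under that scaling is not given here. All 7 were without overlap, as were 9.34% of all genes past 1.5-fold in either direction. Dio3os had a mean above 0.5 RPKM only in EloA null and Dnm3os only in WT. Each thus passed the filter through the genotype in which it was high. Of 47 partners 3 were past 1.5-fold, all higher (Abhd11, Frs3 and Zfhx2). By limma 0% of all genes passed an adjusted p of 0.05, with an unadjusted p under 0.05 for 10 of the 57 and 1959 of all genes. The median log2 fold was 0.15 for the 57 and 0.05 for all genes. The count was higher with any 1 library left out. The share of all genes with a library left out is not given here, so that rise is not read as a result about the class.

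Rab26os, whose libraries are given above, was 1.69-fold higher at 10 min (log2 fold change 0.75 ± 0.13 SE, adjusted p = 0.117 by limma), on 49 and 53 reads in WT and 93 and 109 in EloA null, and Rab26 was 1.25-fold higher. Fbxl12os (chr9:20607475-20617271, plus strand, gene 66662) is a transcribed pseudogene named after the F-box gene Fbxl12. Fbxl12os stood at 0.337 and 0.332 RPKM in WT and 0.517 and 0.428 in EloA null, and Fbxl12 at 2.60 and 2.42 against 2.75 and 2.56 at steady state. Fbxl12os was at 0.708 and 0.530 RPKM in WT and 0.575 and 0.614 in EloA null, and Fbxl12 at 4.47 and 3.62 against 4.43 and 4.07 in the 5-min recovery. Fbxl12os gave 1.77 and 1.60 RPKM in WT and 2.91 and 2.54 in EloA null, and Fbxl12 4.43 and 4.29 against 6.09 and 5.88 in the 10-min recovery. At 10 min the member was 1.62-fold higher in EloA null (log2 fold change 0.66 ± 0.12 SE, adjusted p = 0.129 by limma) and the partner 1.37-fold, both without overlap.

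Dnm3os (chr1:162217623-162225550, plus strand, gene 474332), a microRNA host transcript of mesenchymal cells, was lower. Dnm3os stood at 0.179 and 0.267 RPKM in WT and 0.207 and 0.0902 in EloA null, and Dnm3 at 0.0114 and 0.0127 against 0.0130 and 0.00903 at steady state. Dnm3os was at 0.397 and 0.488 RPKM in WT and 0.434 and 0.285 in EloA null, and Dnm3 at 0.0248 and 0.0320 against 0.0288 and 0.0211 in the 5-min recovery. Dnm3os gave 0.663 and 0.669 RPKM in WT and 0.436 and 0.384 in EloA null, and Dnm3 0.0219 and 0.0188 against 0.0150 and 0.0144 in the 10-min recovery. At 10 min it was at 0.616 of WT (log2 fold change -0.59 ± 0.17 SE, adjusted p = 0.194 by limma). The summed level of the feeder fibroblast markers there was 2.88 to 3.72 RPKM in WT and 1.96 to 2.43 in EloA null, and the part of feeder cells in this difference was not tested.

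Man2c1os (chr9:57129982-57131290, minus strand, gene 76794) leaves the start of the alpha-mannosidase gene Man2c1 head-to-head. Man2c1os stood at 6.83 and 4.83 RPKM in WT and 6.44 and 5.58 in EloA null, and Man2c1 at 3.67 and 3.23 against 3.59 and 3.83 at steady state. Man2c1os was at 2.16 and 2.43 RPKM in WT and 2.58 and 2.19 in EloA null, and Man2c1 at 0.884 and 0.535 against 0.579 and 0.589 in the 5-min recovery. Man2c1os gave 3.64 and 3.64 RPKM in WT and 1.89 and 2.73 in EloA null, and Man2c1 1.31 and 0.905 against 1.64 and 1.28 in the 10-min recovery. At 10 min it was at 0.635 of WT (log2 fold change -0.66 ± 0.19 SE, adjusted p = 0.198 by limma), on 29 and 34 reads in WT and 16 and 33 in EloA null. Man2c1 was 1.32-fold higher there, with overlap between the genotypes.

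**Figure D4:**
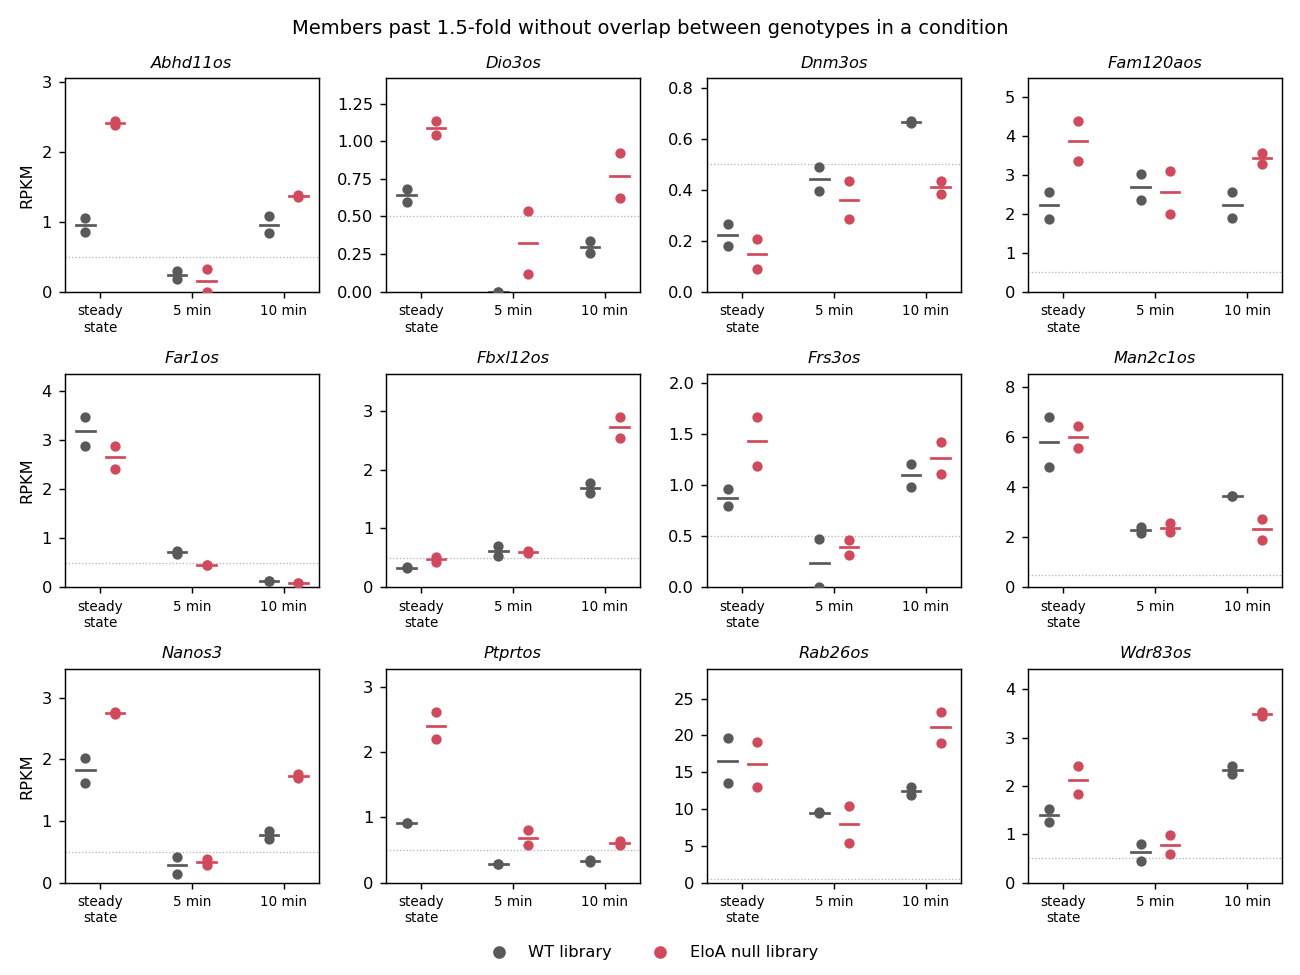
RPKM (vertical axis of each panel, linear from 0) in steady state and in the 5-min and 10-min recovery (horizontal axis) for the 12 genes that were past 1.5-fold without overlap between the genotypes in at least 1 condition. Points are single libraries, grey for WT and red for EloA null, bars are means of 2 libraries and the dotted line is 0.5 RPKM. Ptprtos and Dio3os have every EloA null library above every WT library in all 3 conditions.

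Brip1os (chr11:86201360-86304443, plus strand, gene 74038), which diverges from the helicase gene Brip1, is described here because its values stood out once seen, though it did not pass 1.5-fold. Brip1os stood at 3.08 and 3.37 RPKM in WT and 2.55 and 2.42 in EloA null, and Brip1 at 0.898 and 1.02 against 0.736 and 0.667 at steady state. Brip1os was at 2.23 and 2.25 RPKM in WT and 1.59 and 1.63 in EloA null, and Brip1 at 1.33 and 1.49 against 1.20 and 1.13 in the 5-min recovery. Brip1os gave 1.57 and 1.76 RPKM in WT and 1.21 and 1.22 in EloA null, and Brip1 0.578 and 0.639 against 0.428 and 0.495 in the 10-min recovery. Its EloA null level was 0.771, 0.719 and 0.731 of WT, and each EloA null library was below each WT library in every condition, for Brip1 too. The libraries held 1903 to 9447 reads of it. In a fit of all 12 libraries its adjusted p by limma at 5 min was 0.0280, past the threshold. How many of all genes passed in that fit is not given here. Its span also covers parts of Ints2 and Med13, as given above.

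Whether the EloA effect differed between conditions was tested by limma over all 12 libraries. Of 10324 genes, 8 (0.0775%) passed an adjusted p of 0.05 for the 5-min recovery against steady state, 0 (0%) for the 10-min recovery against steady state and 8 (0.0775%) for 10 against 5 min, and 0 of the 60 opposite-strand genes tested did in any of the 3. Unadjusted p under 0.05 was found for 3, 3 and 4 of the 60 and for 603, 143 and 514 of all genes. The smallest adjusted p by limma was 0.775 (Rab11fip4os1), 1.00 and 0.789 (Fbxl12os).

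The ratio of member to partner within a library differed between genotypes by more than 1.5-fold in 5 cases, from 46, 39 and 47 pairs in the 3 conditions. Other gene pairs were not counted beside them. Each of the 5 had an exact two-sided permutation p of 0.333, the smallest that 2 against 2 libraries allow. On the log2 scale the EloA null ratio of Man2c1os to Man2c1 was lower by -1.09 at 10 min. That of Fam120aos to Fam120a was higher by 0.80 at steady state and 0.64 at 10 min, that of Ube4bos3 to Ube4b by 0.74 at 5 min, and that of Ggnbp2os to Ggnbp2 by 0.78 at 10 min.

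A list of 12 noncoding genes with other name forms, chosen as antisense or overlapping ones, was read beside the class. The strand and overlap of each listed gene are not given here. Of 10, 10 and 8 tested in the 3 conditions, 0, 0 and 0 were past 1.5-fold higher in EloA null and 0, 0 and 1 lower, the 1 being Meg3 at 10 min (1.09 and 0.869 RPKM in WT and 0.699 and 0.599 in EloA null). Kcnq1ot1, the imprinting transcript, stood at 6.19 and 5.14 RPKM in WT and 6.44 and 5.62 in EloA null at steady state. Tsix, the antisense of Xist, stood at 13.9 and 13.6 RPKM in WT and 11.8 and 13.0 in EloA null. Of 19 rows of the nuclear exosome and its adaptors, which break down many antisense transcripts, 1 (Exosc6) was past 1.5-fold at steady state and none of those tested in either recovery. The stem cell markers had 1 gene past 1.5-fold, Pou5f1 at steady state (1.71-fold).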

How the data were processed

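Bru-seq of mouse embryonic stem cells gave 3 tables of RPKM for 24984 genes, each with 2 WT and 2 EloA null libraries, as deposited by the authors, who aligned reads to mm10 with Bowtie2 2.3.4.3 and counted them with featureCounts 1.6.1 and edgeR per the submitters' processing notes. Whether counting used strand is not given in the sources used here. Whole reads were recovered from the RPKM steps (tolerance 0.1 read) with RefSeq lengths of GRCm38.p6, and a length over introns fitted 59 of 66 genes.

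EloA null was compared with WT within each table, over rows with a mean RPKM above 0.5 in its 4 libraries, by a 1.5-fold ratio of means and by limma 3.58.1 (R 4.3.3) with an intensity trend on log2(RPKM + 0.1) and Benjamini-Hochberg adjustment over all such rows. Fold changes on that scale understate those of low genes. The difference between conditions was fitted over all 12 libraries. The scripts were tested on simulated data. Labels do not say whether libraries came from separate cultures, so p-values measure only the spread between these libraries. Intervals of counting were not computed, and the number of reads is given where it is low.

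Members and gene lists were chosen with earlier results of these data known. Every member above 0.5 RPKM in any table is named, and values of every library are given for the 8 with the highest mean, for those past 1.5-fold without overlap between genotypes, and for their partners. Alternatives were another filter, scaling, pseudocount or fit, and leaving out each library.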

Additional observations from a re-analysis of the deposited data

Results flagged for a closer look

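For 4 opposite-strand genes, counting only conditions in which the gene had a mean RPKM above 0.5, every EloA null library lay on one side of WT in 1 condition and on the other side in another. Such switches were not counted over all genes, so their number is not read as a result about the class. Values are differences between the conditions of the log2 fold change of EloA null over WT, and in limma's test of that difference none had an adjusted p under 0.05. The difference was -0.66 for Rab11fip4os1 from steady state to the 5-min recovery (adjusted p = 0.775 by limma), where EloA null was higher at steady state and lower at 5 min. For Ggnbp2os, lower at steady state and higher at 10 min, it was 0.90 (adjusted p = 1.00 by limma). For Scpep1os it was 0.32 and for Bach2os 0.29, both lower at 5 min and higher at 10 min (adjusted p = 0.976 by limma for each).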

How the results depend on the processing

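With no filter on RPKM, 50 of the 180 names were past 1.5-fold at steady state (36 higher in EloA null and 14 lower). At 5 min 68 were (33 and 35) and at 10 min 69 (49 and 20), and 2 partners were at 5 min (1 and 1). These counts take in rows at or below 0.5 RPKM, and the share of all rows is not given here. The splits are thus not read as a result about the class. At 5 min the filter of either genotype gave 5 genes (2 higher and 3 lower), a mean RPKM above 1 gave 1 gene and 0 partners, and a ratio of mean RPKM + 0.1 gave 1 gene. Dividing libraries by their median left 1 partner at 10 min. With all 12 libraries in 1 fit, 1 opposite-strand gene passed an adjusted p of 0.05 by limma at steady state (Ptprtos) and 1 at 5 min (Brip1os). The share of all genes passing in that fit is not given here, and the 0% of the fits by condition is no background for it. Every other alternative that kept all libraries gave 0.

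Leaving out 1 library moved the counts past 1.5-fold between 6 and 10 at steady state, 3 and 8 at 5 min and 8 and 12 at 10 min. For partners the ranges were 3 to 4, 2 to 4 and 2 to 4. Genes whose EloA effect differed between conditions ranged from 0 to 1 (Abhd11os, without the second 5-min EloA null library), and ratios to the partner past 1.5-fold, an alternative chosen after seeing the data, from 9 to 14. A lone library in such a fit is assumed to vary like the other groups. The share of all genes past 1.5-fold with a library left out is not given here, so these moves are not read as a result about the class. Their cause was not tested.

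Of 795 log2 fold changes of opposite-strand genes under other settings, 18 changed sign, each of a size up to 0.0644 in the reported fit. With 1 library left out, 105 of 636 changed sign, of a size up to 0.542 in the reported fit. The replicate number as a block gave 0 genes past an adjusted p of 0.05 in each condition. Deviations of same-numbered libraries correlated at 0.11, 0.15 and 0.10 over only 2 pairs, so the numbers are not taken to pair them. Depth limits the genes with short lengths, where few reads carry a value.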
